A study of Mus musculus with 12 samples.

Results

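Mouse bone marrow cells that carried a mutant isocitrate dehydrogenase 1 gene were compared with matched cells that carried no IDH1 insert but grew in mice given the product of the mutant enzyme, R-2-hydroxyglutarate (R-2HG). The comparison used the 3 arrays titled IDH1_mut and the 3 arrays titled CTL R-2HG, 6 of the 12 arrays of the series, chosen by their titles alone. The other 6 arrays, 3 of empty vector cells (EV) and 3 of cells with wild-type IDH1 (IDH1wt), entered the fit and served to place both groups.

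All 4 groups started from C57BL/6 marrow cells immortalised with HoxA9, so overexpressed Hoxa9 was common to every array and a control without it was not part of the comparison. The cells received a retrovirus that also encodes a green fluorescent protein, either with mutant IDH1 or as an empty vector, and were transplanted into irradiated syngeneic mice. After 4 weeks the fluorescent marrow cells were sorted and their RNA was hybridised to Affymetrix arrays. Recipients of the R-2HG group were given 1 mg of R-2HG per day for those 4 weeks. Their description field names the IDH1mut vector, while title, source name, construct field and design text give the empty vector, and these were taken as right. Not stated are which IDH1 mutation was used, how many mice or separate transductions stand behind the arrays, or whether the other recipients were given a vehicle. The p-values therefore measure the spread between these arrays, which may be technical.

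IDH1 converts isocitrate to 2-oxoglutarate in the cytosol. Cancer-associated mutants reduce 2-oxoglutarate to R-2HG, which competes with it at dioxygenases such as the TET DNA demethylases and the histone lysine demethylases. IDH1 mutations recur in acute myeloid leukaemia. A cell with the mutant enzyme makes R-2HG inside and uses NADPH to do so, whereas given R-2HG reaches the cell from outside, together with every other tissue of the recipient.

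The values are log2 expression centred for each probe set, so a value of 0 is near the middle of the 12 arrays and only differences can be read, not levels. The labelled cell type could for that reason not be checked against its markers. A gene's value is the mean of its probe sets. Differences are given as IDH1mut minus R-2HG on the log2 scale with the standard error (SE) of the limma fit, n = 3 arrays a group, and a gene was called at a Benjamini-Hochberg adjusted p under 0.05 over 15858 genes.

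The R-2HG arrays were not alike. The standard deviation over genes of the difference between 2 arrays was 0.152 for R-2HG replicates 1 and 2, and 0.341 to 0.350 for replicate 3 against either of them. Pairs within each of the other groups gave 0.160 to 0.264. Against the IDH1mut arrays, R-2HG replicates 1 and 2 gave 0.445 to 0.489 and replicate 3 gave 0.320 to 0.333. Replicate 3 thus stood nearer to the IDH1mut arrays than its own group's replicates did. This was not particular to IDH1mut: against EV arrays replicate 3 gave 0.327 to 0.369 and R-2HG replicate 1 gave 0.466 to 0.510. Against IDH1wt arrays replicate 3 gave 0.337 to 0.384. Counts over all genes and over each gene list are therefore also given with replicate 3 as the only R-2HG array, which is then assumed to vary like the other groups. A fit with 1 R-2HG array is less precise whichever array is kept. Replicates 1 and 2 were not fitted alone, so a fall in calls cannot be ascribed to replicate 3 itself. Many single genes are given with their array values, and others with the difference and its SE alone. Genes are called stable below where their call also held with replicate 3 as the only R-2HG array. It had to hold as well with each of the compared arrays left out in turn. For a gene without array values that is not called stable, the text does not show how far its difference rests on replicates 1 and 2.

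IDH1mut and R-2HG cells differed at 5714 of 15858 genes, 36% of those tested. Of these, 3212 (20.3%) were higher and 2502 (15.8%) were lower in IDH1mut cells. The 3 arrays of a group did not overlap those of the other at 7598 genes (47.9%), and 5311 genes met both conditions. Without R-2HG replicate 3, 6503 genes (41%) were called, of which 5234 were among the 5714. With replicate 3 as the only R-2HG array, 336 genes (2.12%) were called, 301 of them among the 5714. Leaving out R-2HG replicate 1 gave 3376 calls and leaving out replicate 2 gave 3109.

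Differences of at least 2-fold were mostly on the side of higher values in IDH1mut cells. They numbered 262, with 240 genes higher and 22 lower. After quantile normalization between arrays there were 129, with 92 higher and 37 lower. At 220 of the 262 genes R-2HG replicate 3 lay between the IDH1mut mean and the mean of R-2HG replicates 1 and 2, and at 39 it lay within the IDH1mut range. Without replicate 3 there were 417 such genes, and with it alone 83, of which 52 were higher and 31 lower.

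A set of 288 genes passed the threshold in the full fit, with each of the 6 arrays left out in turn, and with R-2HG replicate 3 as the only R-2HG array. These are the stable genes. Of these, 212 were higher and 76 lower in IDH1mut cells.

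**Figure D1:**
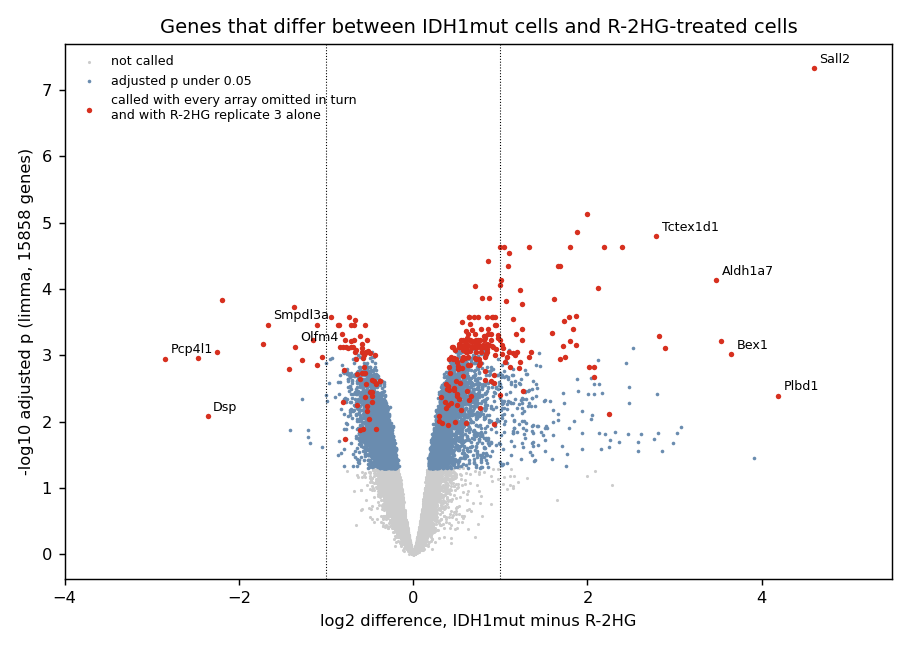
Each point is 1 of 15858 genes, with the log2 difference (IDH1mut minus R-2HG) on the x axis and the -log10 of the limma adjusted p on the y axis; dotted lines mark 2-fold. Called genes extend further to the right (240 at 2-fold or more) than to the left (22), and the 288 stable genes are drawn in red.

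The expression of Idh1 itself did not separate the groups. The IDH1mut arrays read 0.21, -0.04 and -0.10 and the R-2HG arrays 0.32, 0.34 and -0.03 (difference -0.19 ± 0.11, adjusted p = 0.211). Without R-2HG replicate 3 the difference was -0.31, adjusted p = 0.0332. Whether these mouse probe sets detect the IDH1 of the vector is not given in the sources used here, so Idh1 is no check of the labels.

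Among the stable genes higher in IDH1mut cells, Sall2, a zinc finger transcription factor of the spalt family, differed most. Its values were 4.92, 4.65 and 4.08 in the IDH1mut arrays and -0.15, 0.01 and 0.01 in the R-2HG arrays, a difference of 4.59 ± 0.16, adjusted p = 4.72e-08. The 9 other arrays all lay near 0, with -0.14, -0.27 and -0.12 in EV and -0.13, -0.21 and 0.02 in IDH1wt cells. AA467197, the mouse counterpart of human C15ORF48, followed the same arrangement: 2.32, 2.60 and 2.11 in IDH1mut against 0.00, -0.02 and -0.16 in R-2HG arrays (2.40 ± 0.18, adjusted p = 2.3e-05), with 0.14, -0.25 and -0.25 in EV. Mecom, which encodes the stem cell transcription factor EVI1, read 1.40, 1.49 and 1.29 in IDH1mut and -0.32, -0.32 and -0.58 in R-2HG arrays (1.80 ± 0.13, adjusted p = 2.3e-05). Here too EV (-0.11, -0.37 and 0.14) and IDH1wt (-0.34, -0.21 and 0.00) lay beside R-2HG. Of the 2 Mecom probe sets, 1 gave a difference of -0.36 (adjusted p = 0.0962). For these 3 genes the IDH1mut arrays stood apart from all 9 others, and the R-2HG arrays lay with the EV and IDH1wt arrays. With R-2HG replicate 3 alone the differences were 4.54 for Sall2, 2.50 for AA467197 and 1.98 for Mecom.

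Other stable genes had low values in R-2HG arrays. Tctex1d1, of the dynein light chain family, read -2.69, -2.61 and -2.79 in R-2HG arrays and 0.66, -0.28 and -0.10 in IDH1mut arrays (2.79 ± 0.19, adjusted p = 1.6e-05). EV arrays were higher than both, at 1.36, 1.53 and 1.49. Aldh1a7, an aldehyde dehydrogenase close in sequence to Aldh1a1, read -3.06, -3.20 and -1.81 in R-2HG and 0.87, 0.94 and 0.54 in IDH1mut arrays (3.48 ± 0.30, adjusted p = 7.31e-05). Gpat3, which acylates glycerol-3-phosphate in triglyceride synthesis, read -1.77, -1.86 and 0.00 and 1.68, 1.73 and 1.64 (2.89 ± 0.38, adjusted p = 0.00077). Plbd1, a phospholipase B-like protein of myeloid cells, read -4.53, -4.40 and -0.17 and 1.14, 1.15 and 1.16 (4.18 ± 0.84, adjusted p = 0.00407). At Gpat3 and Plbd1 the IDH1mut arrays were also above every EV and IDH1wt array, and R-2HG replicate 3 lay within the range of the EV and IDH1wt arrays there. At both genes R-2HG replicates 1 and 2 alone stood apart on the low side. The difference with replicate 3 alone was 1.32, adjusted p = 0.00975 for Plbd1 and 1.68, adjusted p = 0.0094 for Gpat3. Gem, a small GTPase that restrains calcium channels, gave -2.30, -2.64 and -1.37 against 0.00, 1.16 and 0.98 (2.82 ± 0.34, adjusted p = 0.000518), without overlap. Against replicate 3 alone the differences were 2.89 for Tctex1d1, 2.60 for Aldh1a7 and 2.08 for Gem.

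At Bex1, Erdr1 and Cela1 the values of IDH1wt and IDH1mut cells were both high: the 2 groups with an IDH1 insert lay above the 2 groups with the empty vector. Bex1, a brain-expressed X-linked adaptor, read 2.0, 4.45 and 3.32 in IDH1mut and 4.10, 2.51 and 3.69 in IDH1wt arrays. It read -0.45, -0.39 and -0.36 in R-2HG and 0.11, 0.00 and -0.59 in EV arrays, and the difference between IDH1mut and R-2HG was 3.65 ± 0.51, adjusted p = 0.000969. Between IDH1mut and IDH1wt the difference was -0.18, adjusted p = 0.864, which did not pass. Erdr1, a secreted factor first described in erythroid differentiation, read -0.20, 0.27 and 0.23 in IDH1mut, 0.41, 0.56 and 0.48 in IDH1wt, -2.31, -1.97 and -1.98 in R-2HG and -1.44, -1.94 and -2.0 in EV arrays (2.19 ± 0.16, adjusted p = 2.3e-05). Cela1, a pancreatic-type elastase, read 1.56, 1.83 and 1.30 in IDH1mut and 3.51, 2.04 and 3.04 in IDH1wt arrays against -1.33, -1.26 and -0.28 in R-2HG arrays (2.52 ± 0.33, adjusted p = 0.00077). Between IDH1mut and IDH1wt the difference was -0.38, adjusted p = 0.136 for Erdr1, which did not pass, and -1.30, adjusted p = 0.0217 for Cela1, which was called, so IDH1wt cells were the higher at Cela1. Cela1 was not among the stable genes, since its call was lost with R-2HG replicate 3 alone (1.84, adjusted p = 0.0505). The comparison of IDH1mut with R-2HG thus also contains the contrast between a vector with and without an insert, and for these 3 genes the values of IDH1wt cells lay on the IDH1mut side.

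Stable genes lower in IDH1mut cells included regulators known from blood stem cells. Prdm16, a transcription factor required for stem cell maintenance and a relative of Mecom, read -0.86, -0.77 and -0.42 in IDH1mut and 2.03, 2.07 and 0.62 in R-2HG arrays (-2.25 ± 0.31, adjusted p = 0.000877). Its EV values were -0.01, -0.06 and 0.12, below every R-2HG array. Mllt3, the elongation factor subunit AF9, read -0.07, -0.08 and 0.01 against 1.23, 1.20 and 0.89 (-1.15 ± 0.14, adjusted p = 0.000595). Hoxb3, a homeobox gene of the Hoxb cluster, read 0.01, -0.10 and 0.03 against 1.18, 1.20 and 0.88 (-1.11 ± 0.12, adjusted p = 0.000346). In all 3 genes the R-2HG arrays lay above all 9 other arrays. Against R-2HG replicate 3 alone they differed by -1.30 for Prdm16, -0.94 for Mllt3 and -0.90 for Hoxb3. Hoxb4, named here after its values were seen, was a further stable gene, with -0.11, -0.20 and -0.20 against 0.83, 0.51 and 0.50 (-0.78 ± 0.09, adjusted p = 0.000577). Of 5 Hoxb genes measured these were the 2 that passed, both lower in IDH1mut cells, and the others lay between -0.27 (Hoxb2) and -0.02 (Hoxb9). The stem cell regulators Mecom and Prdm16 were therefore on opposite sides of the comparison: Mecom was high in IDH1mut arrays alone and Prdm16 in R-2HG arrays alone.

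Pcp4l1 and Slc16a9 had the largest differences among the stable genes lower in IDH1mut cells. Pcp4l1, a small Purkinje cell protein 4-like protein, read 3.21, 3.13 and 1.19 in R-2HG and -0.24, -0.75 and -0.02 in IDH1mut arrays (-2.85 ± 0.42, adjusted p = 0.00113). Slc16a9, a monocarboxylate carrier family member that transports carnitine, read 3.02, 2.95 and 1.20 and -0.12, -0.13 and -0.01 (-2.47 ± 0.36, adjusted p = 0.00108). R-2HG replicate 3 was the lowest of its group at both genes and still above every IDH1mut, IDH1wt and EV array, with differences of -1.53 for Pcp4l1 and -1.29 for Slc16a9 when taken alone. Zfp982, a zinc finger gene, read 1.67, 1.77 and 0.77 and -0.20, -0.21 and -0.58 (-1.73 ± 0.22, adjusted p = 0.000681). Ivns1abp, a kelch protein that binds actin, read 1.72, 1.77 and 0.67 and -0.11, -0.18 and 0.16 (-1.43 ± 0.23, adjusted p = 0.00162). Tspoap1, a binding protein of the mitochondrial TSPO, read 1.05, 0.83 and 0.21 and -0.55, -0.39 and -0.28 (-1.11 ± 0.17, adjusted p = 0.00139). R-2HG replicates 1 and 2 were the high arrays in all 3 and replicate 3 lay between them and the IDH1mut arrays.

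Olfm4, an olfactomedin of neutrophil granules, was raised over EV in both groups and further in R-2HG cells. The EV arrays read -1.01, -1.19 and -1.19, the IDH1mut arrays 0.91, 1.26 and 0.98 and the R-2HG arrays 2.63, 2.56 and 2.03. The difference between the last 2 groups was -1.36 ± 0.18, adjusted p = 0.000737. Against EV it was 2.18, adjusted p = 1.64e-05 for IDH1mut and 3.54, adjusted p = 1.05e-06 for R-2HG cells, from the same EV arrays. Smpdl3a, an acid sphingomyelinase-like phosphodiesterase, was lowered in IDH1mut cells alone, with -1.48, -1.78 and -0.92 against 0.42, 0.40 and 0.01 in R-2HG (-1.67 ± 0.18, adjusted p = 0.000346) and -0.01, 0.13 and 0.22 in EV arrays. Dsp, the desmosomal linker desmoplakin, read -2.35, -1.19 and -1.23 in IDH1mut and 0.09, 0.05 and 2.16 in R-2HG arrays (-2.36 ± 0.56, adjusted p = 0.00831). Here R-2HG replicate 3 was the array farthest from the IDH1mut arrays.

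**Figure D2:**
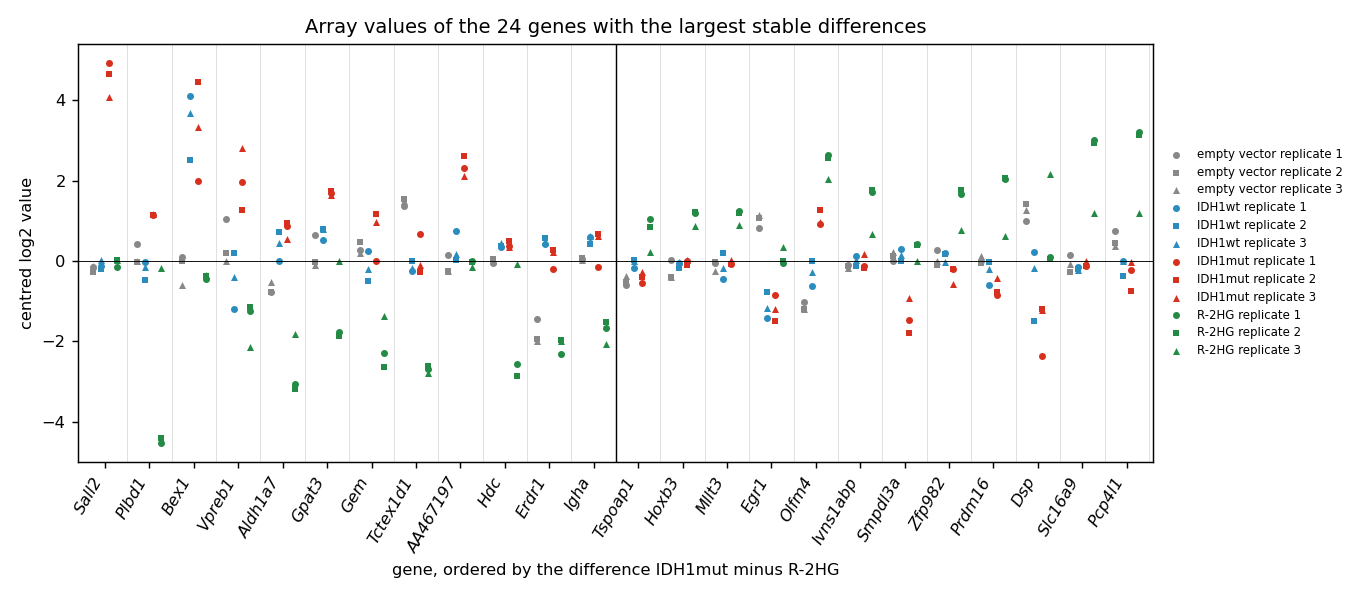
Centred log2 values (y axis) of the 12 stable genes with the largest differences in each direction (x axis), 1 symbol per array; colour gives the group and shape the replicate number. Sall2 and AA467197 are high in red alone, Tctex1d1 and Igha low in green alone, Bex1 high in red and blue, and Prdm16, Slc16a9 and Pcp4l1 high in green alone.

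The 43 gene lists covered growth, metabolism, chromatin, myeloid maturation, stress and other cell types. Over all genes the median difference was -0.00357, with 20.3% called higher and 15.8% called lower, and each list is read beside these values. The lists got no test of their own. With R-2HG replicate 3 alone fewer members were called in nearly every list, in a fit made less precise by its single R-2HG array. The list median kept its sign for ribosome biogenesis (0.43 to 0.20), mitochondrial ribosomal protein (0.23 to 0.16) and mitosis genes (0.31 to 0.23). It turned for others, such as dendritic cell (0.60 to -0.32), eosinophil (0.47 to -0.09) and mast cell genes (0.17 to -0.42). After quantile normalization the number of higher members changed by over 1.5 times for the lists of carriers (6 to 2), dioxygenases (9 to 5), NF-kB targets (4 to 2) and ATF4 and ER stress (9 to 5). It did so too for DNA replication (22 to 14), p53 targets (7 to 4), immediate early (3 to 1) and Schlafen genes (2 to 1), and for some lists of other cell types given with them.

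Genes for making ribosomes were higher in IDH1mut cells. Of 44 ribosome biogenesis genes measured, 32 were called higher and none lower, and the median difference was 0.43. The list medians by array were -0.04, -0.02 and 0.02 in IDH1mut, -0.54, -0.55 and -0.23 in R-2HG, 0.20, 0.10 and 0.06 in EV and 0.13, 0.19 and 0.13 in IDH1wt arrays. The R-2HG arrays were the low ones, replicate 3 less so than the others. With R-2HG replicate 3 alone 1 gene was called higher (Utp4) at a median of 0.20, and without it 35 were higher and 1 lower. Nop56, a core protein of box C/D snoRNPs, read -0.02, 0.04 and 0.09 in IDH1mut and -1.04, -1.01 and -0.39 in R-2HG arrays (0.85 ± 0.14, adjusted p = 0.00172). Polr1a, the largest subunit of RNA polymerase I, read 0.49, 0.49 and 0.68 and -0.42, -0.34 and -0.04 (0.82 ± 0.11, adjusted p = 0.000877), and Utp4, of the small subunit processome, read 0.00, -0.02 and 0.05 and -0.82, -0.81 and -0.49 (0.72 ± 0.09, adjusted p = 0.000737). In none of these 3 genes did the groups overlap.

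Mitochondrial ribosomal protein genes followed, with 37 of 74 higher, 1 lower and a median of 0.23. Their array medians were 0.04, 0.01 and -0.11 in IDH1mut and -0.29, -0.26 and -0.16 in R-2HG arrays. The number called higher was 24 without IDH1mut replicate 2, 22 without R-2HG replicate 1 and 21 without R-2HG replicate 2, and 2 with R-2HG replicate 3 alone. The stable member Mrps30 read 0.04, 0.00 and -0.01 in IDH1mut and -0.45, -0.41 and -0.47 in R-2HG arrays (0.46 ± 0.06, adjusted p = 0.000741), and Mrpl50, also stable, differed by 0.69 ± 0.09, adjusted p = 0.000753. Cytosolic ribosomal protein genes were near the background, with 8 of 44 higher, 1 lower and a median of 0.05, and with R-2HG replicate 3 alone 0 higher and 1 lower at a median of 0.0026. Rpl37 was the lower one and was stable, with -0.35, -0.58 and -0.53 in IDH1mut and 0.00, 0.18 and 0.07 in R-2HG arrays (-0.57 ± 0.08, adjusted p = 0.000999). Rpl14 differed by 1.17 ± 0.22, adjusted p = 0.00287 in the other direction, with the R-2HG arrays at -1.56, -1.41 and -0.45. The higher count of this list was 5 without R-2HG replicate 1 or 2.

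Serine and one-carbon metabolism, which supplies carbon units for nucleotides and methylation, had the largest share of called members among the 43 lists. Of 19 genes, 15 were higher and none lower, with a median of 0.46. Psat1, of serine synthesis, read 0.06, -0.03 and -0.02 in IDH1mut and -0.99, -1.21 and -0.36 in R-2HG arrays (0.86 ± 0.16, adjusted p = 0.0031). Phgdh, the first enzyme of that route, read -0.04, 0.05 and -0.04 and -0.63, -0.66 and -0.33 (0.53 ± 0.10, adjusted p = 0.00343). Ahcy, which clears S-adenosylhomocysteine, differed by 0.54 ± 0.10, adjusted p = 0.00355, and Mthfd2, the mitochondrial folate enzyme, by 0.33 ± 0.06, adjusted p = 0.00308, with IDH1mut arrays at 0.33, 0.23 and 0.31 and R-2HG arrays at -0.02, -0.07 and -0.02. The count was 9 without R-2HG replicate 2, and no gene of the list was called with R-2HG replicate 3 alone, where the median was 0.20.

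Cell cycle genes were higher in IDH1mut cells as well. Of 43 DNA replication genes 22 were higher and 2 lower (median 0.24), and of 35 mitosis genes 18 were higher and none lower (median 0.31). Rrm1, the large subunit of ribonucleotide reductase, read 0.02, 0.06 and 0.10 in IDH1mut and -0.58, -0.64 and -0.43 in R-2HG arrays (0.61 ± 0.08, adjusted p = 0.000695) and was stable. Ccna2, cyclin A2, read 0.17, 0.24 and 0.32 and -0.42, -0.41 and -0.23 (0.60 ± 0.09, adjusted p = 0.00129), and Cdk4, the G1 kinase, read 0.04, 0.00 and -0.02 and -0.80, -0.78 and -0.36 (0.65 ± 0.11, adjusted p = 0.00224). The groups did not overlap at these genes, and the R-2HG arrays lay lower. The replication count was 13 without R-2HG replicate 1 and 11 without R-2HG replicate 2, and 1 with R-2HG replicate 3 alone. For mitosis it was 12 without R-2HG replicate 1 or 2 and 0 with replicate 3 alone, where the list median was 0.23.

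In the MYC and MAX network 4 of 13 genes were higher and 1 lower (median 0.04, and with R-2HG replicate 3 alone 0 higher and 0 lower at a median of 0.03). Myc itself, a driver of ribosome and nucleotide synthesis genes, read -0.23, 0.03 and 0.00 in IDH1mut and -0.98, -0.91 and -0.42 in R-2HG arrays (0.70 ± 0.13, adjusted p = 0.00267). Its EV values were 0.42, 0.37 and 0.38, above both groups. With R-2HG replicate 3 alone the Myc difference was 0.36, adjusted p = 0.127. Max, the partner of MYC, differed by 0.29 ± 0.06, adjusted p = 0.00631. The higher count of the network was 2 without IDH1mut replicate 1 or R-2HG replicate 1 or 2.

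Energy metabolism showed smaller shifts in the same direction. Of 35 TCA cycle, pyruvate and glutamate enzymes 15 were higher and 2 lower (median 0.20, and with R-2HG replicate 3 alone 1 higher and 0 lower at a median of 0.15). Got1, the cytosolic aspartate aminotransferase, was stable and read 0.45, 0.71 and 0.53 in IDH1mut against -0.07, 0.00 and -0.20 in R-2HG arrays (0.65 ± 0.10, adjusted p = 0.00139). Suclg2, a succinyl-CoA synthetase subunit, differed by 0.80 ± 0.11, adjusted p = 0.000969, Glul, glutamine synthetase, by 0.80 ± 0.15, adjusted p = 0.00271, and Dlat, of pyruvate dehydrogenase, by 0.45 ± 0.08, adjusted p = 0.00228. In the respiratory chain list 15 of 71 genes were higher, none lower, with a median of 0.12, near the background share. It had 0 higher and 0 lower at a median of 0.08 with R-2HG replicate 3 alone. Its member Ndufs1, a complex I subunit, differed by 0.58 ± 0.09, adjusted p = 0.00119. The respiratory chain count was 9 without R-2HG replicate 1 or 2.

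Of 26 glycolysis and hypoxia genes 12 were higher and 3 lower (median 0.27, and with R-2HG replicate 3 alone 2 higher and 0 lower at a median of 0.16). Pfkfb4, which makes the activator of phosphofructokinase, read 0.87, 0.69 and 0.53 in IDH1mut and -0.33, -0.37 and 0.29 in R-2HG arrays (0.83 ± 0.16, adjusted p = 0.00369), whereas Vegfa, the angiogenic hypoxia target, was lower in IDH1mut cells, at -0.46, -0.18 and -0.33 against 0.22, 0.25 and 0.06 (-0.50 ± 0.08, adjusted p = 0.00203). P4ha1, a collagen prolyl hydroxylase that uses 2-oxoglutarate, was stable and read -0.01, 0.00 and 0.10 against -0.96, -0.97 and -0.51 (0.85 ± 0.11, adjusted p = 0.000664). Of 27 cholesterol and fatty acid genes 11 were higher and 2 lower (median 0.18, and with R-2HG replicate 3 alone 1 higher and 1 lower at a median of 0.12). Sqle, squalene epoxidase, was higher in IDH1mut cells in every array, at 0.26, 0.17 and 0.20 against -1.39, -1.21 and -0.42 (1.22 ± 0.19, adjusted p = 0.00153). Acss2, which makes acetyl-CoA from acetate, was lower, at -0.63, -0.72 and -0.54 against 0.03, 0.04 and 0.41 (-0.79 ± 0.13, adjusted p = 0.00168). Both were stable.

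Branched-chain amino acid catabolism had 7 of 21 genes higher and 1 lower (median 0.17, and with R-2HG replicate 3 alone 1 higher and 0 lower at a median of 0.07), with the stable member Aldh6a1 at 0.50 ± 0.10, adjusted p = 0.00415. The ATF4 and ER stress list had 9 of 27 higher and none lower (median 0.18, and with R-2HG replicate 3 alone 0 higher and 0 lower at a median of 0.04), with Asns, asparagine synthetase, at 0.79 ± 0.17, adjusted p = 0.00484 and Slc3a2, of the large neutral amino acid exchanger, at 0.58 ± 0.09, adjusted p = 0.00124. That count was 5 without IDH1mut replicate 1 or 3, 4 without R-2HG replicate 1 and 3 without R-2HG replicate 2. NADPH and glutathione genes had 7 of 26 higher and 2 lower (median 0.04, and with R-2HG replicate 3 alone 0 higher and 0 lower at a median of 0.03). Among these Prdx3, a mitochondrial peroxiredoxin, was higher (0.72 ± 0.15, adjusted p = 0.00537), and Nnt, the transhydrogenase that makes mitochondrial NADPH, was lower in IDH1mut cells. Nnt read -0.11, -0.32 and 0.11 in IDH1mut, -0.08, -0.16 and -0.05 in IDH1wt, 0.52, 0.55 and 0.43 in R-2HG and 0.50, 0.61 and 0.58 in EV arrays (-0.61 ± 0.10, adjusted p = 0.00162). The Nnt values of the 2 IDH1 vector groups lay together below those of the 2 empty vector groups, although 1 of its 3 probe sets gave a difference of 0.15.

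**Figure D3:**
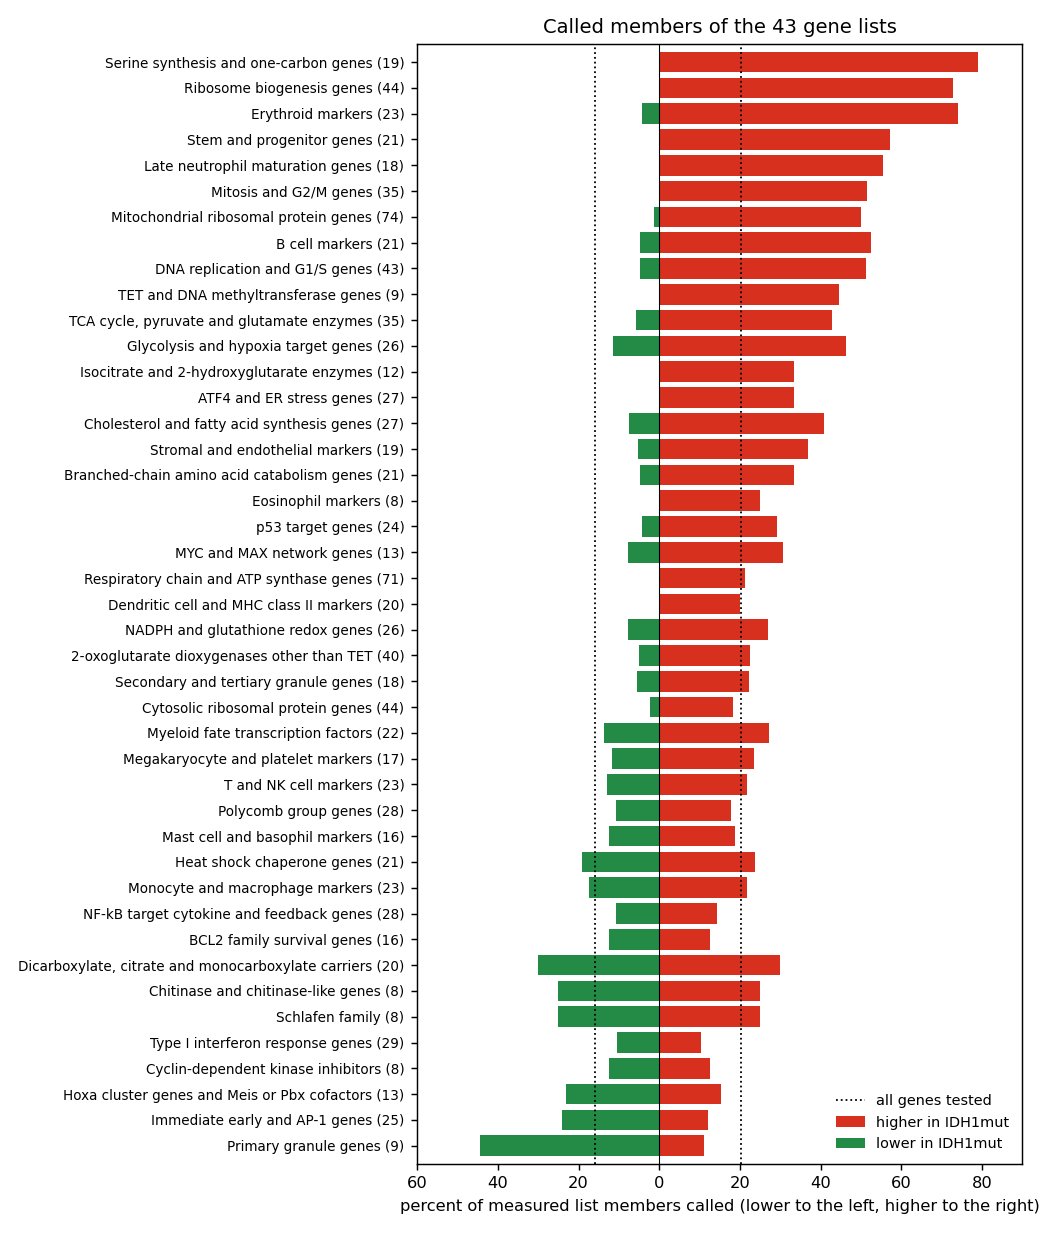
Percent of measured members of each of the 43 gene lists (y axis, number measured in brackets) called higher (red, right) or lower (green, left) in IDH1mut than in R-2HG cells; dotted lines mark 20.3% and 15.8%, the shares over all genes tested. One-carbon, ribosome biogenesis and erythroid lists reach furthest to the right and primary granule genes furthest to the left.

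Enzymes that make or remove 2-hydroxyglutarate differed little. Of 12 measured, 4 were higher in IDH1mut cells and none lower, with a median of 0.12, and no member was called with R-2HG replicate 3 alone. Idh2, the mitochondrial isoform, read 0.03, 0.05 and -0.07 in IDH1mut and -0.49, -0.49 and -0.25 in R-2HG arrays (0.41 ± 0.09, adjusted p = 0.00522). D2hgdh, which oxidises R-2HG, read -0.09, -0.01 and 0.25 and -0.21, -0.26 and -0.07 with a difference of 0.23 ± 0.09, adjusted p = 0.0763. It did not pass with all arrays and passed without R-2HG replicate 3 (0.28, adjusted p = 0.0445). With all arrays its probe sets disagreed, at 0.46 (adjusted p = 0.00628) and -0.0078 (adjusted p = 0.969). Ldha, lactate dehydrogenase A, differed by 0.35 ± 0.08, adjusted p = 0.00935.

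Carriers of dicarboxylates, citrate and monocarboxylates split evenly, with 6 of 20 higher and 6 lower (median 0.07, and with R-2HG replicate 3 alone 1 higher and 1 lower at a median of 0.02). Beside Slc16a9, the lower members included Slc13a2, a sodium-coupled dicarboxylate carrier, with -0.49, -0.47 and -0.64 in IDH1mut and 0.28, 0.11 and 0.23 in R-2HG arrays (-0.74 ± 0.13, adjusted p = 0.00242), and Slc13a4, a sulfate carrier of that family (-0.68 ± 0.11, adjusted p = 0.00203). The EV values of Slc13a2 were 0.00, 0.44 and 0.39, and those of IDH1wt -0.32, -0.51 and -0.06, so the lower values were shared by both groups with an IDH1 insert. Slc25a13, the mitochondrial aspartate-glutamate carrier, was higher and stable (0.68 ± 0.09, adjusted p = 0.000756). The number of higher carriers was 3 without IDH1mut replicate 1 and 2 without IDH1mut replicate 2 or 3 or R-2HG replicate 1 or 2.

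TET and DNA methyltransferase genes had 4 of 9 members higher and none lower, at a median of -0.02, and with R-2HG replicate 3 alone 1 higher and 0 lower at a median of 0.26. After quantile normalization the median was 0.04. These were Dnmt3a, at -0.07, 0.04 and 0.15 in IDH1mut and -0.42, -0.64 and -0.31 in R-2HG arrays (0.50 ± 0.09, adjusted p = 0.00292), Dnmt3b (0.49 ± 0.09, adjusted p = 0.00343), Uhrf1, which guides maintenance methylation (0.48 ± 0.08, adjusted p = 0.00226), and Tet1 (0.42 ± 0.11, adjusted p = 0.0135). Of the 4 Tet1 probe sets 1 was called, at 1.46 (adjusted p = 0.00251), and the others gave 0.45, 0.01 and -0.24 and did not pass. The Tet1 values of the groups overlapped, at -0.370 in IDH1mut replicate 1 and -0.368 in R-2HG replicate 3. The Tet1 call was lost at an adjusted p of 0.0505 without IDH1mut replicate 3 and 0.0623 without R-2HG replicate 2. Tet2, a dioxygenase inhibited by R-2HG and often mutated in leukaemia, read -0.08, -0.23 and 0.16 and 0.15, 0.00 and 0.05 (-0.11 ± 0.10, adjusted p = 0.369) and did not pass. Of 40 other 2-oxoglutarate dioxygenases 9 were higher and 2 lower (median 0.06, and with R-2HG replicate 3 alone 2 higher and 0 lower at a median of 0.02). Beside P4ha1 these included the histone demethylases Kdm4b, higher (0.42 ± 0.11, adjusted p = 0.0151), and Kdm4a, lower (-0.39 ± 0.10, adjusted p = 0.0143). Kdm4b was lost at an adjusted p of 0.0559 without IDH1mut replicate 2, 0.0664 without R-2HG replicate 1 and 0.0615 without R-2HG replicate 2, and Kdm4a at 0.0538 without IDH1mut replicate 3. The higher dioxygenase count was 5 without IDH1mut replicate 1, 4 without IDH1mut replicate 3 or R-2HG replicate 1 and 2 without R-2HG replicate 2, and the lower one 0 without IDH1mut replicate 3. Of 28 polycomb genes 5 were higher and 3 lower (median 0.09, and with R-2HG replicate 3 alone 0 higher and 1 lower at a median of 0.06), with Pcgf6 at 0.61 ± 0.13, adjusted p = 0.00495. The higher polycomb count was 3 without R-2HG replicate 1 or 2, and the lower one 1 without IDH1mut replicate 2. These lists lay near the background of 36% called or below it, except the TET and methyltransferase list at 44.4% and the carriers at 60%.

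Genes of the stem and progenitor list were mostly higher in IDH1mut than in R-2HG cells. The list does not hold Prdm16, Mllt3, Hoxb3 and Hoxb4, which were lower in IDH1mut cells. Of 21 measured, 12 were higher and none lower, with a median of 0.50. The array medians were -0.16, 0.23 and 0.16 in IDH1mut and -0.42, -0.37 and -0.13 in R-2HG arrays, so they overlapped. Against EV the median difference was 0.01 for IDH1mut cells, with 6 genes higher and 4 lower. For R-2HG cells it was -0.43, with 2 higher and 11 lower, so the R-2HG arrays were the ones away from EV. Cd34, a progenitor surface sialomucin, was stable and read -0.09, 0.26 and 0.17 in IDH1mut and -1.05, -1.0 and -0.64 in R-2HG arrays (1.01 ± 0.13, adjusted p = 0.000694). Flt3, a cytokine receptor of early progenitors, read 0.43, 0.64 and 1.29 and -0.57, -0.41 and 0.31 (1.01 ± 0.24, adjusted p = 0.00784). Meis1, the cofactor of Hoxa9 in leukaemia, read 0.38, 0.59 and 1.12 and -0.11, -0.26 and 0.00 (0.82 ± 0.16, adjusted p = 0.00386), while 1 of its 3 probe sets was called the other way, at -0.32. The groups did not overlap at these genes, and with R-2HG replicate 3 alone Meis1 gave 0.70, adjusted p = 0.132. The count of the list was 7 without R-2HG replicate 1 or 2, and 1 with R-2HG replicate 3 alone. In the Hoxa cluster and its cofactors 2 of 13 genes were higher and 3 lower (median -0.19, and with R-2HG replicate 3 alone 1 higher and 0 lower at a median of -0.08). Hoxa9 read -0.34, -0.33 and -0.06 and 0.09, 0.05 and 0.09 (-0.32 ± 0.08, adjusted p = 0.0126). Of its 2 probe sets 1 was called, at -0.48 (adjusted p = 0.0345), and the other gave -0.15 (adjusted p = 0.242). Whether they detect the overexpressed HoxA9 of these cells is not given in the sources used here. Hoxa7 differed by -0.37 ± 0.09, adjusted p = 0.00749, and Pknox1, a Meis-like cofactor, was higher and stable (0.39 ± 0.10, adjusted p = 0.0113).

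Among 22 myeloid fate transcription factors 6 were higher and 3 lower (median 0.02, and with R-2HG replicate 3 alone 1 higher and 0 lower at a median of -0.06). Spi1, encoding the myeloid master regulator PU.1, read 0.43, 0.26 and 0.20 in IDH1mut and -0.15, -0.21 and -0.04 in R-2HG arrays (0.43 ± 0.08, adjusted p = 0.00251). Id2, an inhibitor of helix-loop-helix factors, read 0.96, 0.99 and 0.96 and 0.35, 0.27 and 0.21 (0.70 ± 0.13, adjusted p = 0.00323). Its probe sets gave 1.69 (adjusted p = 0.000512), 0.28 (adjusted p = 0.061) and 0.12 (adjusted p = 0.478). Gfi1, a repressor needed for granulocytes, was lower, at -0.57, -0.21 and -0.21 against 0.26, 0.35 and 0.00 (-0.54 ± 0.12, adjusted p = 0.00779). These 3 genes kept their calls without any single array. With R-2HG replicate 3 alone they did not pass, at differences of 0.34, adjusted p = 0.119 for Spi1, 0.77, adjusted p = 0.0745 for Id2 and -0.33, adjusted p = 0.274 for Gfi1, a fit with 1 R-2HG array. The count of higher factors was 3 without R-2HG replicate 1 or 2.

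Early and late granulocyte genes lay on opposite sides. Primary granule genes, made at the promyelocyte stage, had 4 of 9 members lower and 1 higher, with a median of -0.19, and with R-2HG replicate 3 alone 0 higher and 0 lower at a median of -0.09. After quantile normalization the median was -0.39. Elane, neutrophil elastase, read -0.73, -0.66 and -0.87 in IDH1mut and 0.05, 0.10 and -0.39 in R-2HG arrays (-0.67 ± 0.13, adjusted p = 0.00363), against 0.16, 0.42 and 0.48 in EV arrays. Prtn3, proteinase 3, read -0.57, -0.68 and -0.60 and 0.00, 0.03 and -0.41 (-0.49 ± 0.10, adjusted p = 0.00495), and Mpo, myeloperoxidase, read -0.47, -0.50 and -0.44 and 0.00, 0.00 and -0.32 (-0.36 ± 0.08, adjusted p = 0.00789). At all 3 genes both groups lay below EV, the IDH1mut arrays furthest, and R-2HG replicate 3 was the R-2HG array nearest to them. With it alone the differences were -0.36, adjusted p = 0.181 for Elane and -0.15, adjusted p = 0.356 for Mpo. Cst7, a granule cystatin and the higher member, read -4.77, -5.05 and -0.41 in R-2HG and -0.52, -0.38 and -0.38 in IDH1mut arrays (2.98 ± 0.87, adjusted p = 0.0211), so its call rested on R-2HG replicates 1 and 2 and the groups overlapped. Cst7 was named after its values were seen.

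Late neutrophil maturation genes had 10 of 18 members higher and none lower, with a median of 0.35. The array medians were 0.61, 0.56 and 0.33 in IDH1mut, 0.18, 0.06 and 0.17 in R-2HG and -0.01, -0.17 and -0.17 in EV arrays. Il1r2, the decoy receptor for interleukin 1, read 1.51, 1.22 and 1.06 in IDH1mut and -0.13, -0.15 and 0.32 in R-2HG arrays (1.25 ± 0.14, adjusted p = 0.000394). Clec5a, a myeloid lectin, read 1.25, 1.39 and 1.19 and 0.57, 0.51 and -0.23 (0.99 ± 0.20, adjusted p = 0.00399), and Pglyrp1, a peptidoglycan recognition protein of neutrophil granules, differed by 0.40 ± 0.07, adjusted p = 0.00266. Il1r2 and Clec5a were stable. With R-2HG replicate 3 alone 2 members were higher and 1 lower, and the median was 0.28.

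Of 18 secondary and tertiary granule genes 4 were higher, with differences of 0.86 to 1.14, and 1 lower, at a list median of 0.00. All 4 higher members were stable, and the lower one, Fcnb encoding ficolin B, differed by -0.52 ± 0.16, adjusted p = 0.0264. Fcnb was named after its values were seen. Mmp8, neutrophil collagenase, read 1.48, 1.5 and 1.39 in IDH1mut, 0.72, 0.72 and 0.16 in R-2HG and -0.32, -0.88 and -0.87 in EV arrays (0.93 ± 0.17, adjusted p = 0.00258). Orm1, orosomucoid, read 1.49, 1.82 and 1.31 and 0.45, 0.64 and 0.19 (1.11 ± 0.17, adjusted p = 0.00147), Arg2, mitochondrial arginase, 1.64, 1.35 and 1.02 and 0.25, 0.24 and 0.09 (1.14 ± 0.16, adjusted p = 0.000908), and Anxa1, annexin A1, 0.57, 0.91 and 0.97 and 0.02, -0.12 and -0.02 (0.86 ± 0.10, adjusted p = 0.000482). The R-2HG arrays of Mmp8 lay between EV and IDH1mut arrays. The Anxa1 probe sets gave 1.57 (adjusted p = 0.000336) and 0.14 (adjusted p = 0.135).

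Of 29 type I interferon response genes 3 were higher and 3 lower (median 0.02, and with R-2HG replicate 3 alone 0 higher and 0 lower at a median of -0.10). Ifit1, an antiviral effector, read 0.92, 0.71 and 0.72 in IDH1mut and -0.29, -0.27 and 0.73 in R-2HG arrays (0.73 ± 0.21, adjusted p = 0.021). R-2HG replicate 3 lay among the IDH1mut arrays, and without it 11 interferon genes were higher and 3 lower. Eif2ak2, the kinase PKR, was lower, at -0.25, -0.23 and -0.72 against 0.32, 0.20 and 0.18 (-0.63 ± 0.13, adjusted p = 0.0047), with 1 of 3 probe sets called the other way at 0.43. Of 28 NF-kB target genes 4 were higher and 3 lower (median 0.09, and with R-2HG replicate 3 alone 1 higher and 1 lower at a median of -0.03), among them Il1rn, the interleukin 1 receptor antagonist, higher and stable at 0.98 ± 0.12, adjusted p = 0.000487, and Ccl5 at 1.28 ± 0.21, adjusted p = 0.00168. The higher NF-kB count was 7 without R-2HG replicate 3 and 2 without IDH1mut replicate 1 or R-2HG replicate 1 or 2, and the lower count 1 without IDH1mut replicate 2 and 0 without IDH1mut replicate 3 or R-2HG replicate 1 or 2. The lower interferon count was 1 without IDH1mut replicate 2 or R-2HG replicate 1 or 2, and the higher one 1 without R-2HG replicate 2.

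Immediate early genes had 6 of 25 members lower and 3 higher (median -0.10, and with R-2HG replicate 3 alone 0 higher and 3 lower at a median of -0.11). Egr1, an immediate early zinc finger factor, read -0.84, -1.5 and -1.20 in IDH1mut and -0.05, 0.00 and 0.34 in R-2HG arrays (-1.28 ± 0.19, adjusted p = 0.00117), with EV at 0.83, 1.07 and 1.15 and IDH1wt at -1.42, -0.78 and -1.17. Jun, of the AP-1 complex, read -0.50, -0.85 and -0.78 and -0.07, -0.19 and 0.55 (-0.81 ± 0.17, adjusted p = 0.00501). Both were stable, and R-2HG replicate 3 was the highest R-2HG array in both. The Jun probe sets gave -1.39 (adjusted p = 0.00114) and -0.23 (adjusted p = 0.312). Ptgs2, cyclooxygenase 2, read 1.18, -0.04 and -0.68 and 1.56, 1.36 and 1.10 (-1.18 ± 0.34, adjusted p = 0.0206), and its groups overlapped. The higher count of the list was 1 without R-2HG replicate 2. The Ptgs2 call was lost at an adjusted p of 0.0632 without IDH1mut replicate 2, 0.0726 without IDH1mut replicate 3, 0.0714 without R-2HG replicate 1 and 0.060 without R-2HG replicate 2.

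Heat shock chaperones had 5 of 21 members higher and 4 lower (median 0.19, and with R-2HG replicate 3 alone 0 higher and 2 lower at a median of 0.02). The inducible pair Hspa1a and Hspa1b, near-identical copies whose probe sets may not tell them apart, were lower in IDH1mut cells. Hspa1b read -0.75, -1.52 and -0.69 in IDH1mut, 0.00, -0.06 and 1.33 in R-2HG, 2.45, 2.61 and 2.40 in EV and -3.17, -1.97 and -2.59 in IDH1wt arrays (-1.41 ± 0.37, adjusted p = 0.0135). Hspa1a differed by -1.21 ± 0.32, adjusted p = 0.0133. Both calls were lost when IDH1mut replicate 2 was left out, at an adjusted p of 0.0522 for Hspa1b and 0.0511 for Hspa1a. Hsph1, a co-chaperone, went the other way, at 0.34, 0.44 and 0.53 in IDH1mut and -1.44, -1.49 and 0.04 in R-2HG arrays (1.40 ± 0.30, adjusted p = 0.00585), with R-2HG replicates 1 and 2 low. The higher count of the list was 11 without R-2HG replicate 3, 3 without R-2HG replicate 1 and 2 without R-2HG replicate 2, and the lower one 2 without IDH1mut replicate 3 or R-2HG replicate 1 or 2 and 0 without IDH1mut replicate 2.

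The small Schlafen and chitinase families each had 2 of 8 members higher and 2 lower, with medians of 0.15 and -0.08. The Schlafen genes had 0 higher and 0 lower at a median of -0.14 with R-2HG replicate 3 alone, and the chitinases 2 higher and 0 lower at a median of 0.16. Slfn1, a Schlafen gene of growth control, read 1.24, 0.92 and 0.81 in IDH1mut and 0.04, 0.08 and 0.36 in R-2HG arrays (0.83 ± 0.12, adjusted p = 0.00103), and Slfn5 was lower (-0.50 ± 0.11, adjusted p = 0.00537). The Slfn5 probe sets gave -0.89 (adjusted p = 0.00233) and -0.11 (adjusted p = 0.63). Ovgp1, a chitinase-like oviduct glycoprotein, read 1.29, 1.29 and 1.39, 0.52, 0.27 and 0.33 and -1.41, -1.01 and -1.07 in IDH1mut, R-2HG and EV arrays (0.95 ± 0.11, adjusted p = 0.000354). It was stable, and R-2HG lay between EV and IDH1mut. The lower chitinase count was 0 without IDH1mut replicate 2 or R-2HG replicate 1 or 2.

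Cdkn2a, which encodes the cell cycle inhibitors p16 and p19, was lower in IDH1mut cells. It read -1.54, -1.60 and -1.5 in IDH1mut, -0.76, -0.61 and -0.28 in R-2HG, 0.26, 1.22 and 1.01 in EV and 0.31, 0.02 and -0.05 in IDH1wt arrays (-0.99 ± 0.21, adjusted p = 0.00478). Both groups lay below every EV array, IDH1mut furthest, and the difference with R-2HG replicate 3 alone was -1.26, adjusted p = 0.0533. Of 8 inhibitors 1 was higher, Cdkn1b encoding p27 (0.44 ± 0.10, adjusted p = 0.00627), and Cdkn2a was the one lower (median -0.09). The inhibitors had 0 higher and 0 lower at a median of -0.10 with R-2HG replicate 3 alone. Cdkn1a (-0.04 ± 0.10, adjusted p = 0.767) and Cdkn2b (-0.06 ± 0.13, adjusted p = 0.75) did not pass. Of 24 p53 target genes 7 were higher and 1 lower (median 0.16, and with R-2HG replicate 3 alone 2 higher and 0 lower at a median of 0.08). The death receptor Fas read 1.06, 0.91 and 0.79 in IDH1mut and 0.12, -0.04 and 0.06 in R-2HG arrays (0.87 ± 0.08, adjusted p = 0.000136), with EV at -0.09, 0.00 and -0.03, and Ccng1, cyclin G1, differed by 0.55 ± 0.07, adjusted p = 0.00059. Both were stable. The higher p53 target count was 4 without R-2HG replicate 1 or 2, and the lower one 3 without R-2HG replicate 3. Of 16 BCL2 family genes 2 were higher and 2 lower (median -0.02, and with R-2HG replicate 3 alone 0 higher and 0 lower at a median of 0.0006), with Bcl2, the antiapoptotic founder member, at -0.03, -0.07 and 0.38 in IDH1mut and -0.58, -0.69 and -0.42 in R-2HG arrays (0.66 ± 0.11, adjusted p = 0.00221). The lower BCL2 family count was 0 without R-2HG replicate 2.

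Among lists of other cell types, the erythroid list had 78.3% of its members called and the B cell list 57.1%, against 36% of all genes. The stromal list had 42.1%, the monocyte list 39.1%, megakaryocyte 35.3%, T and NK cell 34.8%, mast cell 31.2%, eosinophil 25% and dendritic cell 20%, so most of these lay near the background or below it. In RNA from a sorted population, fewer cells of a type and less RNA per cell cannot be told apart, and the sort kept all fluorescent cells whatever their lineage. Of 23 erythroid genes 17 were higher and 1 lower, with a median of 1.34. After quantile normalization 10 were higher, at a median of 0.81. The array medians of the list were 0.17, 0.39 and 0.19 in IDH1mut, -1.0, -1.57 and 0.00 in R-2HG, -0.48, -0.55 and -0.68 in EV and -0.77, 0.24 and -0.12 in IDH1wt arrays. R-2HG replicates 1 and 2 were the lowest of all 12 arrays, R-2HG replicate 3 lay just under the IDH1mut arrays, and the IDH1wt arrays were spread over the range of EV and IDH1mut.

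The 3 erythroid members called higher that hold the motif AGATAA and differ most are shown with the 250 bases before their annotated start, since erythroid genes are known targets of GATA factors, which bind GATA letters. Capitals mark AGATAA or its reverse complement, searched on both strands. The sequences are from RefSeq on GRCm38.p6, given 5′ to 3′ on the gene's strand, which is the plus strand in all cases: Rhd, of the Rh blood group complex, at chr4:134864286-134864535, Trim10, a tripartite motif gene of terminal erythroid cells, at chr17:36869324-36869573, and Alas2, the erythroid enzyme of haem synthesis, at chrX:150547167-150547416.
Rhd: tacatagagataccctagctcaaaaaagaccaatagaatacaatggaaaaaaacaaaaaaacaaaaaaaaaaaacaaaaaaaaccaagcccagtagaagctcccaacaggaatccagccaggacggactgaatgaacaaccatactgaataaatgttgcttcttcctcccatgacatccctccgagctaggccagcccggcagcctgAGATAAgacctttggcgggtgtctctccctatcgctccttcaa
Trim10: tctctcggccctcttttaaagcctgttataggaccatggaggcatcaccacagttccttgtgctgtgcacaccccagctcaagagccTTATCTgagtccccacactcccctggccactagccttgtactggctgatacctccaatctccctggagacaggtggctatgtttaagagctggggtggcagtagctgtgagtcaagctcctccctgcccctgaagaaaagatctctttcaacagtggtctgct
Alas2: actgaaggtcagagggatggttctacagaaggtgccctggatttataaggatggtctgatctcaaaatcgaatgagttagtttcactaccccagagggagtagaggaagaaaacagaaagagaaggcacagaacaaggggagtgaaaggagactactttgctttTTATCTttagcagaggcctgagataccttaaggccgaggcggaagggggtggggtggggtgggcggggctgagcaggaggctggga

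The motif began 43 bases before the start in Rhd, 163 in Trim10 and 86 in Alas2. It was present in 5 of 19 promoters of the list (26.3%; 17 genes had an entry) and in 9.99% of all 32851 promoters of that length. Of the 14 promoters of members called higher 4 held it (28.6%). Other stretches with GATA letters were not counted. The promoters of Rhag, Hemgn, Ermap and Klf1, which lack AGATAA, hold TGATAA or its reverse complement. So do those of Hba-a1 and Hba-a2, which were not called. The share of promoters with TGATAA was not counted, in the list or over all promoters, so it does not set the higher members apart. The letters CCACACCC, a motif of Kruppel-like factors searched the same way, were in none of the 19 promoters and in 3.2% of all. A match describes these letters and is not a binding site.

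Rhd read 0.47, 0.64 and 0.29 in IDH1mut and -2.23, -2.18 and 0.00 in R-2HG arrays (1.94 ± 0.52, adjusted p = 0.0147). Trim10 read 0.44, 0.86 and 0.44 and -1.0, -1.59 and 0.08 (1.42 ± 0.36, adjusted p = 0.0115), and Alas2 0.00, 0.94 and 0.89 and -0.93, -1.0 and -0.04 (1.27 ± 0.34, adjusted p = 0.0151). Rhag, the partner of Rhd in the membrane, had the second largest difference of the list, at 0.56, 0.87 and 0.62 against -3.11, -3.37 and 0.11 (2.80 ± 0.75, adjusted p = 0.0147), after Cldn13, an erythroblast claudin (3.08 ± 0.79, adjusted p = 0.0121). Hemgn, a nuclear regulator of erythroid cells, read 0.41, 0.59 and 0.34 and -3.12, -3.38 and 0.00 (2.61 ± 0.71, adjusted p = 0.0153), and Klf1, the erythroid Kruppel-like factor, 0.54, 0.65 and 0.33 and -2.67, -2.40 and 0.00 (2.20 ± 0.60, adjusted p = 0.0153). At each of these genes R-2HG replicate 3 was close to the IDH1mut arrays and replicates 1 and 2 were low. Gata1, the erythroid master regulator, read 0.18, 0.44 and 0.13 and -1.29, -2.04 and 0.00 (1.36 ± 0.44, adjusted p = 0.0316), and its call was lost when any 1 array other than R-2HG replicate 3 was left out. The number of higher erythroid genes was 10 without IDH1mut replicate 3, 9 without IDH1mut replicate 2 and 3 without R-2HG replicate 1 or 2, and none with R-2HG replicate 3 alone, where the median was 0.26. Haemoglobin genes did not pass (Hba-a1 -0.21, adjusted p = 0.21; Hba-a2 0.26, adjusted p = 0.0677), and these near-identical copies are uncertain on this array.

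Of 21 B cell genes measured, 11 were higher and 1 lower, with a median of 1.02, or 0.58 with R-2HG replicate 3 alone, when 3 were called. Vpreb1, of the surrogate light chain of B cell precursors, read 1.96, 1.26 and 2.81 in IDH1mut and -1.26, -1.16 and -2.14 in R-2HG arrays (3.53 ± 0.44, adjusted p = 0.000602). Dntt, the nucleotide transferase of lymphoid precursors, read 1.39, 1.24 and 2.69 and -0.15, -0.01 and -0.75 (2.07 ± 0.35, adjusted p = 0.00211), and Igll1, the other surrogate light chain gene, 0.93, 0.59 and 1.24 and -0.24, -0.14 and -0.53 (1.23 ± 0.18, adjusted p = 0.00128). All 3 were stable, with R-2HG replicate 3 the lowest array. Igha, the heavy chain of immunoglobulin A, read -0.16, 0.67 and 0.61 and -1.66, -1.53 and -2.07 (2.13 ± 0.19, adjusted p = 9.81e-05). The list varied inside groups too: its array medians were 0.40, 0.22 and 1.04 in IDH1mut, -0.41, -0.35 and 0.00 in R-2HG, 1.04, 0.00 and 0.00 in EV and -0.27, 0.56 and 0.17 in IDH1wt arrays. The median of R-2HG replicate 3 was level with EV replicates 2 and 3. The count was 7 without R-2HG replicate 2, 6 without R-2HG replicate 1 and 5 without IDH1mut replicate 3, and 7 after quantile normalization, at a median of 0.80.

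T and NK cell genes had 5 of 23 higher and 3 lower (median 0.11, and with R-2HG replicate 3 alone 1 higher and 0 lower at a median of -0.02). The T cell receptor components Cd3g (0.86, 1.56 and 1.12 in IDH1mut, -1.15, -0.64 and -0.30 in R-2HG arrays, 1.87 ± 0.24, adjusted p = 0.000695), Cd3d (1.10 ± 0.15, adjusted p = 0.000831) and Cd247 (1.08 ± 0.16, adjusted p = 0.00129) were among the higher ones. Cd3g was stable. Ncr1, an NK cell receptor, was lower (-0.49 ± 0.11, adjusted p = 0.00723). The higher count was 3 without R-2HG replicate 2, and the lower one 1 without R-2HG replicate 1 or 2.

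The medians of the mast cell, eosinophil and dendritic cell lists depended on R-2HG replicates 1 and 2. Of 16 mast cell and basophil genes 3 were higher and 2 lower (median 0.17), and with R-2HG replicate 3 alone 1 was higher and 1 lower, at a median of -0.42. After quantile normalization the median was -0.04. Cpa3, the mast cell carboxypeptidase, read -6.33, -6.48 and 0.28 in R-2HG and -0.70, -0.11 and 0.00 in IDH1mut arrays (3.91 ± 1.30, adjusted p = 0.0356), so R-2HG replicate 3 was above all IDH1mut arrays while the other R-2HG arrays were far below. Cpa3 was named after its values were seen. Hdc, which makes histamine, read -2.58, -2.87 and -0.08 in R-2HG and 0.36, 0.50 and 0.33 in IDH1mut arrays (2.24 ± 0.52, adjusted p = 0.00754), and replicate 3 alone gave 0.48, adjusted p = 0.045. The lower members were the mast cell protease genes Mcpt2 and Tpsb2. Mcpt2 read 0.20, 0.19 and 0.11 in R-2HG and 0.00, -0.14 and -0.28 in IDH1mut arrays (-0.30 ± 0.10, adjusted p = 0.0348). R-2HG replicate 3 lay with its group there. The 2 Tpsb2 probe sets gave -0.55 and -0.40. The higher mast cell count was 7 without R-2HG replicate 3 and 1 without IDH1mut replicate 1 or 2 or R-2HG replicate 2. Of 8 eosinophil genes 2 were higher and none lower (median 0.47; -0.09 with replicate 3 alone). Siglecf, an eosinophil lectin, read -2.85, -2.77 and -0.79 and -1.05, -0.89 and -0.79 (1.23 ± 0.41, adjusted p = 0.0358), and no eosinophil gene was called when any 1 array other than R-2HG replicate 3 was left out. After quantile normalization none was called and the median was 0.09.

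Of 20 dendritic cell and MHC class II genes 4 were higher and none lower, with a median of 0.60. After quantile normalization 2 were higher and 1 lower, at a median of 0.16. The count was 13 without R-2HG replicate 3 and 2 without IDH1mut replicate 2 or 3 or R-2HG replicate 1 or 2. Without R-2HG replicate 3 the median was 1.07, and with it alone none was called and the median was -0.32. H2-Ob, of the class II chaperone DO, read -0.33, 0.43 and 0.59 in IDH1mut and -2.84, -2.46 and 0.20 in R-2HG arrays (1.93 ± 0.59, adjusted p = 0.0255). Of 23 monocyte and macrophage genes 5 were higher and 4 lower (median -0.05, and with R-2HG replicate 3 alone 1 higher and 0 lower at a median of -0.05). The complement genes of macrophages C1qa (1.31 ± 0.22, adjusted p = 0.0019), C1qb (1.41 ± 0.22, adjusted p = 0.00138) and C1qc (1.07 ± 0.21, adjusted p = 0.00381) were 3 of the higher ones, with C1qb at 0.46, 0.78 and 0.53 in IDH1mut and -1.02, -1.20 and -0.25 in R-2HG arrays. The lower ones, named after their values were seen, were Klf4, a monocyte transcription factor (-0.78 ± 0.19, adjusted p = 0.0105), F13a1, a coagulation factor XIII subunit (-0.60 ± 0.14, adjusted p = 0.0094), Ms4a4c (-0.59 ± 0.14, adjusted p = 0.00886) and Ctss, cathepsin S (-0.35 ± 0.10, adjusted p = 0.016). The higher monocyte count was 8 without R-2HG replicate 3, and the lower one 9 without IDH1mut replicate 1. Of 17 megakaryocyte genes 4 were higher and 2 lower (median 0.21, and with R-2HG replicate 3 alone 0 higher and 0 lower at a median of 0.02), with Gng11, a G protein subunit of platelets, at 1.5 ± 0.31, adjusted p = 0.00493. The higher count was 2 without IDH1mut replicate 2 and 1 without R-2HG replicate 2. Of 19 stromal and endothelial genes 7 were higher and 1 lower (median 0.15, and with R-2HG replicate 3 alone 0 higher and 0 lower at a median of 0.19), with Adipoq, adiponectin, at 1.04 ± 0.24, adjusted p = 0.00754 and the lower one, Kdr, a receptor of vascular endothelial growth factor, at -0.54 ± 0.12, adjusted p = 0.00552. The higher stromal count was 4 without IDH1mut replicate 2 or 3, and the lower one 3 without R-2HG replicate 3.

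**Figure D4:**
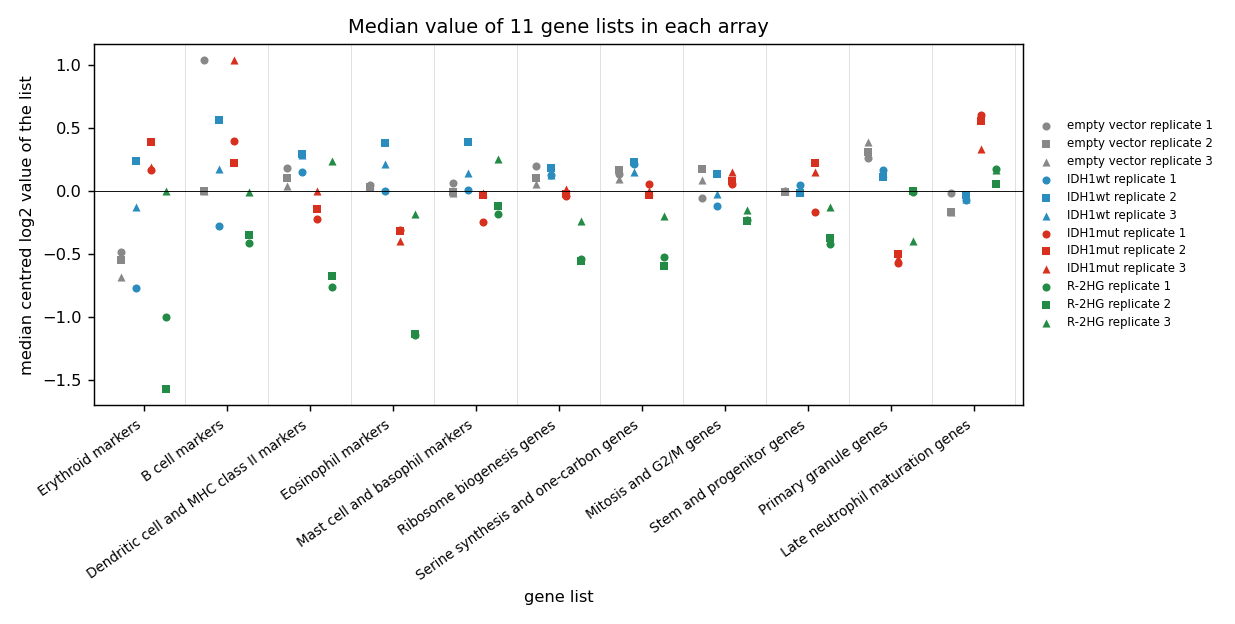
Median centred log2 value (y axis) of 11 gene lists (x axis) in each of the 12 arrays; colour gives the group and shape the replicate number. R-2HG replicates 1 and 2 lie together at the bottom for erythroid, dendritic, eosinophil, ribosome biogenesis and one-carbon lists, with R-2HG replicate 3 (green triangle) above them.

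Erythroid, dendritic cell and eosinophil markers were lowest in the same 2 R-2HG arrays as the ribosome biogenesis and one-carbon lists. Over R-2HG replicates 1, 2 and 3 the erythroid median was -1.0, -1.57 and 0.00, the ribosome biogenesis median -0.54, -0.55 and -0.23 and the dendritic cell median -0.76, -0.67 and 0.24. Their part in the other differences was not tested. Among the stable genes of either direction, several showed no R-2HG array nearer to the IDH1mut arrays than to its own group. Examples were Sall2, AA467197, Mecom, Tctex1d1, Erdr1, Olfm4, Hoxb3, Mllt3, Fas, Bex1 and Igha, and such genes were not counted over all stable genes.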

How the data were processed

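RNA of sorted marrow cells was measured on 12 Affymetrix mouse arrays, 3 for each of 4 groups. The authors deposited log2 values made with RMA, per the submitters' processing notes. The version is not given in the sources used here. The values are centred for each probe set: 83.6% of 32533 probe sets hold an exact 0, at most 7 of 12 arrays lie on either side of it, and every array has a median of 0. Which arrays the centring used is unknown here. Centring removes the level, so no filter on low values could be set, and dim probe sets take part in every count. The number of arrays limits the precision.

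The 28805 probe sets with exactly 1 gene symbol in GEO's platform annotation were averaged to 15858 genes, 8510 of them with 1 probe set. The 757 with several symbols and 2971 with none were left out. Groups came from the titles. limma 3.58.1 in R 4.3.3 fitted 1 coefficient a group over all 12 arrays (lmFit and eBayes, 8 residual and 3.96 prior degrees of freedom), with the contrast IDH1mut minus R-2HG and Benjamini-Hochberg adjustment over all genes. An exact permutation of 3 against 3 arrays cannot go below 0.1.

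Named genes were the 15 called genes per direction with the largest difference and non-overlapping arrays, the 12 per direction with the largest difference among the stable genes, and up to 4 called members per list with the smallest p (2 in lists with fewer calls). A further 14 genes of the study's theme were measured, such as Idh1, Meis1 and Tet2. Predicted genes were left out. The comparison, the lists and the rule were chosen with earlier results of these data known. The text gives a part of the 199 named genes, chosen to show the patterns with their exceptions. The fit was tested on simulated data for this comparison over 15858 genes: 71.4% of changes of 0.5 on the log2 scale, 91.5% of 1 and 100% of 2 were recovered, with 0.0575% of unchanged genes called. The simulated noise was normal, independent between arrays and equal in all groups for each gene. Changes were put into 70, 71 and 59 genes. It held no array set apart like R-2HG replicate 3 and far fewer changed genes, so these rates check the code and not this comparison. Alternatives were quantile normalization, median centring, other probe set rules, a filter on the SD at the 30th percentile, trend with robust estimates, array weights, the 6 arrays alone, a replicate block, a 1.5-fold threshold and leaving out arrays.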

Additional observations from a re-analysis of the deposited data

How the results depend on the processing

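The direction with more calls, higher in IDH1mut cells, was the same under each alternative run. Of 15858 genes, 5714 were called and 262 of them by at least 2-fold. The fit of R-2HG replicate 3 alone gave 336 calls and 83 at 2-fold. Quantile normalization gave 4595 calls and 129 at 2-fold, and the probe set with the highest SD gave 6345 and 441. With a threshold of 1.5-fold, 1031 genes were called. Leaving out 1 of the 6 arrays gave 3109 to 6503 calls and 167 to 417 at 2-fold. The fit of each probe set called 9793 of 28805, and array weights gave 7699 calls; the other settings moved the count of calls by less than 1.5 times.

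Of 199 named genes, 137 were no longer past the threshold with R-2HG replicate 3 alone, 33 without R-2HG replicate 2 and 24 without R-2HG replicate 1, against 7 after quantile normalization and 17 with the 6 arrays alone. The direction turned for Siglecf after quantile normalization (-0.046) and with R-2HG replicate 3 alone (-0.12), and for Itgax in the latter (-0.0083). In single probe sets it turned for Mecom (-0.36), Igll1 (-0.24), Meis1 (-0.32), Ccr9 (-0.19), Tet1 (-0.24), Tigar (-0.060), Slc7a1 (-0.27), Kdm5a (-0.41), Rbbp4 (-0.053), Nnt (0.15) and Eif2ak2 (0.43). The cause was not tested.

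Replicate numbers are shared by the groups, and same-numbered arrays correlated at 0.0971, -0.0747 and 0.0789 in their deviations from the group means. These deviations come from few arrays a group, and those of the R-2HG group contain the distance of replicate 3 from the others. Whether same-numbered arrays share an origin can therefore not be decided from them. With the replicate block 5346 genes were called, 261 at 2-fold.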

Other observations

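Probe sets without a gene symbol also differed between IDH1mut and R-2HG cells. In a fit of all 32533 probe sets with limma, 874 of 2971 with no symbol (29.4%) and 235 of 757 with several symbols (31%) were called at a Benjamini-Hochberg adjusted p under 0.05, against 10814 (33.2%) of all. Their genes were not analysed here.

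Several large differences lay outside the rule for named genes because the arrays of the groups overlapped, and were picked after their values were seen. Tal1, a transcription factor of erythroid and stem cells, read -0.17, 0.30 and 0.16 in IDH1mut and -3.13, -3.38 and 0.03 in R-2HG arrays (2.26 ± 0.64, adjusted p = 0.0191). Cnn3, an actin-binding calponin, read -0.21, -0.04 and 0.16 and -4.09, -4.16 and -0.13 (2.76 ± 0.78, adjusted p = 0.018), and Ddx4, a germ cell helicase, 0.00, 1.24 and 0.63 and -3.77, -3.62 and 0.17 (3.03 ± 0.81, adjusted p = 0.0146). R-2HG replicates 1 and 2 were the low arrays at these 3 genes, and R-2HG replicate 3 lay within the IDH1mut range.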
